A study of Homo sapiens with 12 samples.

Results

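Knockdown of LHX2 during neural induction was examined in H9, a human embryonic stem cell line. Cells labelled shLHX2 carried a short hairpin RNA named for LHX2. Cells labelled shLuc, the control, carried a hairpin named for luciferase, a light-producing enzyme that human cells do not have. Both groups came from neural induction of 12 days, and the groups were taken by these labels, which fit 4 of the 12 arrays of the series, 2 with shLHX2 and 2 with shLuc. The other 8 arrays form an overexpression arm in the same line. In it, dox-plus cells received doxycycline for 3 days to induce LHX2 and dox-minus cells did not, and RNA was prepared at days 4 and 16, that is, 1 and 13 days after treatment ended. The series text describes its samples as biological duplicates. The hairpin sequences, their number, the vector and its promoter, the selection or cloning of the cells and the induction medium are not given in the sources used here, so an effect of 1 hairpin or 1 cell pool cannot be told apart from one of lowered LHX2.

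LHX2 is a LIM-homeodomain transcription factor. It marks the eye field and the dorsal forebrain of vertebrate embryos, and in the mouse it is needed for eye formation and for the cortex to form in place of the cortical hem. Neural induction turns pluripotent cells into neuroectoderm, which turns on PAX6 and then forebrain and eye field regulators, while signals of the BMP, Nodal and WNT families are known to oppose the early steps and their secreted antagonists to favour them. The comparison asks which genes differ when LHX2 is lowered in this period.

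Each array measured total RNA of 1 culture, and its signals were normalized over the 12 arrays and put on the log2 scale. The shLHX2 arrays detected 19203 and 19635 of 47227 probes and had median raw signals of 73.1 and 82.7, against 20125 and 19815 probes and medians of 81.7 and 81.6 on the shLuc arrays. Across 15650 genes, which are not independent replicates, the shLHX2 arrays correlated with each other at 0.9873 (Pearson) and the shLuc arrays at 0.9942. The array of shLHX2 replicate 1 stood closer to the shLuc arrays, at 0.9875 and 0.9889, than to its own replicate, while shLHX2 replicate 2 correlated with the shLuc arrays at 0.9796 and 0.9823. The median SD of a gene was 0.158 in shLHX2 and 0.109 in shLuc cells. With 2 arrays a group, precision is limited by their number, and a difference in bulk RNA cannot tell fewer cells of a type from less RNA per cell.

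The cells were checked against markers of the types a day 12 culture may hold. Of 9 neural progenitor markers 7 were detected on each of the 4 arrays, and SOX1 and ZIC1 were not detected on any of them. The summed signal of these markers was 8900 and 8378 in shLHX2 cells, against 12590 and 10690 in shLuc cells. SOX2, which stem cells share, had the highest signal of these, at 12.25 and 11.80 against 12.84 and 12.43. PAX6, SIX3 and FABP7 were also lower on both shLHX2 arrays, while NES, HES5 and OTX2 overlapped. The 6 stem cell markers on the array were detected throughout, with summed signals of 47930 and 41910 in shLHX2 and 43660 and 41630 in shLuc cells, beside 31590 to 43450 at day 4 and 19450 to 25980 at day 16 of the other arm. Of the core genes among them, POU5F1 was at 11.97 to 12.55 on the 4 arrays and at 12.66 to 13.14 at day 4. NANOG was at 9.68 to 10.31 and at 10.63 or higher at day 4. Both were thus lower on each day 12 array than on each day 4 array and higher than on each day 16 array. The other markers did not share this drop from day 4. DNMT3B was higher on each day 12 array (13.26 to 13.70) than on each day 4 array (12.46 to 13.18), and LIN28A, DPPA4 and ZFP42 overlapped between these days. Across genes the 4 arrays correlated with the day 4 arrays at 0.9553 to 0.9782 and with the day 16 arrays at 0.9281 to 0.9526. Summed signals of neural crest markers were 2302 and 4274 in shLHX2 cells, against 2155 and 2116 in shLuc cells. TFAP2A had by far the highest signal of these, at 10.98 and 11.95 against 10.88 and 10.86. FOXD3 was higher on both shLHX2 arrays, SNAI2 and SOX10 overlapped, and PAX3 was undetected on all 4 arrays. Surface ectoderm and trophoblast markers summed to 631.2 and 997.6 against 425.5 and 496.3. Of them KRT7, GATA3 and CGA were higher on both shLHX2 arrays, KRT17 overlapped, and TP63 was undetected on all 4 arrays. Mesenchyme markers summed to 1547 and 1620 in shLHX2 and to 1461 and 1348 in shLuc cells. Of them LUM (8.874 and 8.319 against 7.615 and 7.316) and DCN were higher on both shLHX2 arrays. COL1A1, with the highest signal, was lower on both (9.729 and 9.912 against 10.06 and 10.03). COL3A1 overlapped, and POSTN was detected on shLuc replicate 1 only. Neuron markers summed to 3556 and 4381 in shLHX2 cells, against 3969 and 4167 in shLuc cells. Endoderm markers summed to 331.3 and 385.2 in shLHX2 cells, against 580.6 and 630.7 in shLuc cells, with SOX17 and TTR undetected on all 4 arrays. The endothelial and blood markers PECAM1, CDH5 and HBE1 were undetected on all 4 arrays. TEK was the 1 of 4 such markers that was detected, and their summed signal was 149.4 and 157.5 in shLHX2 cells, against 402.3 and 433.9 in shLuc cells. What part these other cell types have in the results that follow was not tested.

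LHX2 was lower on both shLHX2 arrays than on both shLuc arrays. Its log2 signal was 7.35 and 8.09 in shLHX2 cells, against 9.77 and 9.73 in shLuc cells. The groups did not overlap, and the first shLHX2 array was the lower of its pair. The means were 7.72 ± 0.52 (SD, n = 2) in shLHX2 and 9.75 ± 0.03 (SD, n = 2) in shLuc cells, a log2 fold change of -2.03 ± 0.27 (SE), or 0.245 of the shLuc signal (limma with Benjamini-Hochberg adjustment over all genes tested, adjusted p = 0.00592). LHX2 was still detected on both shLHX2 arrays, and its level lay above the 4.87 to 6.05 of the day 4 arrays and below the 11.92 to 13.04 of the day 16 arrays. The call held without shLHX2 replicate 2 (adjusted p = 0.0109) and was lost without shLHX2 replicate 1 (0.0711), shLuc replicate 1 (0.106) or shLuc replicate 2 (0.104), with log2 fold changes from -2.40 to -1.66.

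Few genes other than LHX2 passed the threshold. At an adjusted p under 0.05, 85 of 15650 genes were called (0.543%), 39 of them higher (0.249%) and 46 lower (0.294%) in shLHX2 cells. Their absolute log2 fold changes ran from 0.867 to 2.56 with a median of 1.30, and 80 of them differed by over 2-fold. Without adjustment, 1597 genes had p under 0.05, and 102 genes differed by over 2-fold without being called. For many genes, 7514 of 15650 (48%), both arrays of 1 group lay beyond both of the other. Of them 3972 (25.4% of all genes) were higher and 3542 (22.6%) lower in shLHX2 cells. A gap between the groups was thus common in this comparison. Every call rests on few arrays. Leaving out 1 array at a time ended 62 calls without shLHX2 replicate 1, 62 without shLHX2 replicate 2, 75 without shLuc replicate 1 and 74 without shLuc replicate 2. The 8 genes whose calls held in each of these 4 fits were CTSF, ZNF667-AS1, IZUMO2, CIDEB, ECHDC3 and LOC653907, which rose in shLHX2 cells, and TEK and CST1, which fell. In 51 genes the call was lost in each of the 4 fits, and below such genes are said to be called with all 4 arrays alone.

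**Figure D1:**
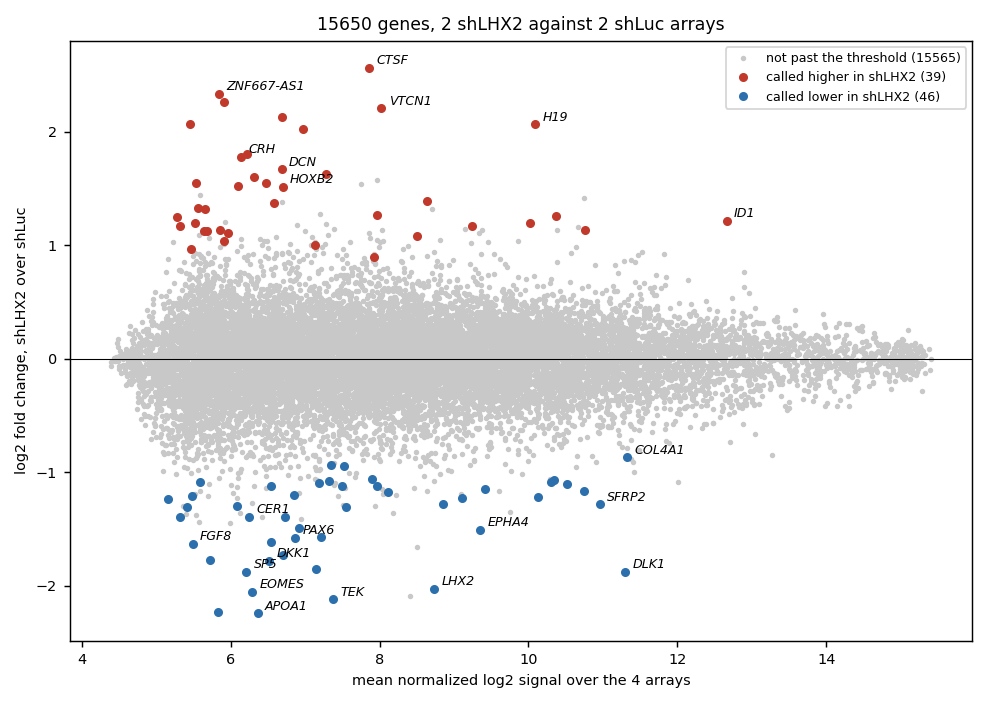
Log2 fold change (shLHX2 over shLuc) of 15650 genes against their mean normalized log2 signal over the 4 arrays, 1 point a gene, with called genes in colour and grey points for genes not past the threshold. The 39 genes called higher and 46 called lower lie between absolute log2 fold changes of 0.867 and 2.56.

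Some called genes were not detected on either array of one group, 12 in shLHX2 and 16 in shLuc cells. For these, "at least N-fold" marks a bound, in which each array of the undetected group enters with the lowest signal that counts as detected on that array, or with the gene's own signal where that is higher. Each is set as a group mean against the mean of the group that detects the gene. Adjusted p-values below are all from the same limma fit, and list medians use fitted log2 fold changes, undetected genes included. The lists were drawn up with earlier results of these data known, so their counts of calls are a description. Over all lists together 34 of 627 tested genes were called, 25 lower, among them the target LHX2, and 9 higher. Of all genes 0.294% were called lower and 0.249% higher, the shares to set beside each list count below. Leaving out 1 array moved the medians of 28 of the 34 lists by over 1.5 times or across 0, and the 11 that changed sign were all within 0.0964 of 0.

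Of the eye field genes, PAX6 fell along with LHX2. PAX6, a paired-box factor needed for the eye and made throughout early neuroectoderm, had log2 signals of 5.80 and 6.36 in shLHX2 cells, against 7.55 and 7.76 in shLuc cells. Its log2 fold change was -1.57 ± 0.22 (adjusted p = 0.0079), and both of its probes were lower, by -1.57 and -1.23. As with LHX2, the PAX6 call held without shLHX2 replicate 2 (adjusted p = 0.0126). It was lost without shLHX2 replicate 1 (0.0851), shLuc replicate 1 (0.106) and shLuc replicate 2 (0.145). PAX6 was undetected on the day 4 arrays, at 4.51 to 4.75, and stood at 9.55 to 10.42 on the day 16 arrays.

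SIX3 and RAX, homeobox genes that with LHX2 and PAX6 define the eye field, did not pass the test. SIX3 had log2 signals of 7.05 and 7.95 in shLHX2 cells, against 8.83 and 8.88 in shLuc cells (-1.36 ± 0.36, adjusted p = 0.154), and RAX 6.63 and 7.08 against 8.13 and 8.16 (-1.29 ± 0.29, adjusted p = 0.0823). Neither overlapped between the groups. In the list of eye field genes 2 of 14 tested members were called, both lower, where 0.294% of all genes were. The 2 were PAX6 and LHX2, the gene the hairpin is named for, so the count holds the target itself. The list median, LHX2 included, was a log2 fold change of -0.311, beside 0.00545 over all genes. OTX2, the anterior regulator that precedes the eye field, was at 10.58 and 10.83 in shLHX2 cells, against 11.09 and 10.72 in shLuc cells, and its groups overlapped.

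**Figure D2:**
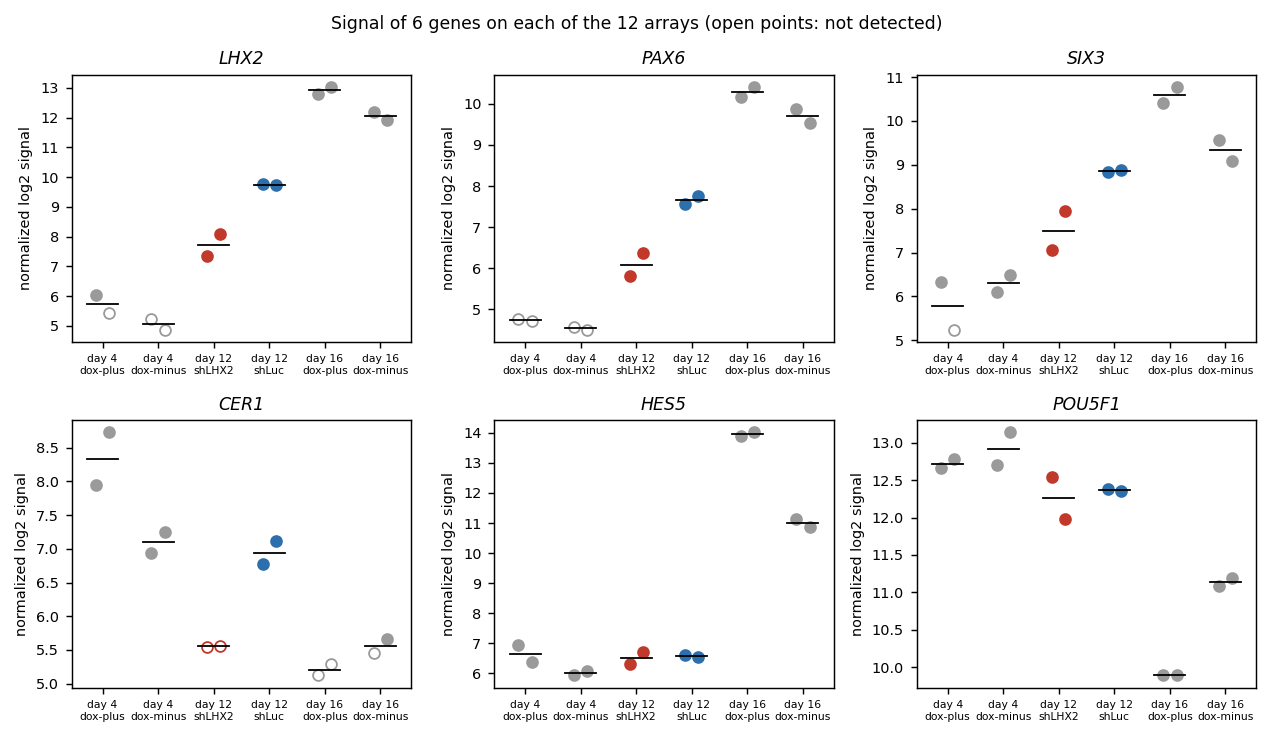
Normalized log2 signal of 6 genes on each of the 12 arrays, with a bar at each group mean and open points where the gene was not detected. LHX2, PAX6 and SIX3 on the shLHX2 arrays lie below the shLuc arrays and above the day 4 arrays, while HES5 and POU5F1 overlap between shLHX2 and shLuc.

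Among 22 tested forebrain patterning factors none was called at the adjusted threshold (limma, with 0 to 2 calls under the alternatives), and the median log2 fold change was -0.274, and -0.176 without shLHX2 replicate 1. FEZF1, which helps set forebrain identity, was at 7.23 and 7.68 in shLHX2 cells, against 8.32 and 8.87 in shLuc cells (adjusted p = 0.194). EMX2, a homeobox gene of the dorsal cortex, was at 5.18 and 6.02 in shLHX2 cells, detected on 1 of the 2, against 6.84 and 6.37 in shLuc cells (adjusted p = 0.242). For 12 of the 22 both shLHX2 arrays were below both shLuc arrays, where 22.6% of all genes were.

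LHX2 was the called member of its own family list. Of 15 tested LIM-homeobox genes and LIM cofactors 1 was lower and 0 were higher, and the median log2 fold change was 0.0253. LMO3, a LIM-only protein, had log2 signals of 4.83 and 4.87 in shLHX2 cells, undetected, against 6.08 and 6.37 in shLuc cells, at least 1.52-fold lower and not past the threshold (adjusted p = 0.0643). ISL1, a LIM-homeobox gene of motor and sensory neurons, was at 10.31 and 10.61 in shLHX2 cells and at 9.98 and 9.95 in shLuc cells (adjusted p = 0.465). LMO4 and LHX6 differed by 0.03 each.

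Of 30 tested neural progenitor and radial glia genes, PAX6 alone was called. The median log2 fold change was -0.276, and in 17 of the 30 both shLHX2 arrays were below both shLuc arrays, beside 22.6% of all genes. Without shLHX2 replicate 1 the median was -0.183. CDH2, the neural cadherin, was at 11.36 and 11.56 in shLHX2 cells, against 12.59 and 12.51 in shLuc cells (-1.09 ± 0.26, adjusted p = 0.103). SOX2, shared by stem cells and neural progenitors, was at 12.25 and 11.80 against 12.84 and 12.43 (adjusted p = 0.413). HES5, a Notch target of dividing progenitors, and NES, the progenitor intermediate filament, overlapped between the groups, with log2 fold changes of -0.05 and 0.01.

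Of 14 tested secreted antagonists of WNT signalling 4 fell in shLHX2 cells and 0 rose, beside 0.294% and 0.249% of all genes. The median log2 fold change of the list was -0.328, and it lay between -0.617 (without shLHX2 replicate 1) and -0.40 (without shLHX2 replicate 2) with 1 array left out. DKK1, which blocks the LRP5 and LRP6 co-receptors, had log2 signals of 5.55 and 5.71 in shLHX2 cells, detected on 1 of the 2, against 7.65 and 7.17 in shLuc cells (-1.78 ± 0.24, adjusted p = 0.00542). CER1 encodes Cerberus, a secreted protein that holds back BMP and Nodal ligands and, in the frog, WNT ligands as well. It was undetected at 5.54 and 5.57 in shLHX2 cells, against 6.77 and 7.11 in shLuc cells, at least 2.51-fold lower (adjusted p = 0.033). SFRP2 and FRZB, 2 secreted frizzled-related proteins that bind WNT ligands, had high signals in both groups and fell. SFRP2 was at 10.34 and 10.30 in shLHX2 cells, against 11.71 and 11.49 in shLuc cells (-1.28 ± 0.20, adjusted p = 0.014).

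FRZB was at 9.31 and 9.73 in shLHX2 cells, against 10.83 and 10.63 in shLuc cells (-1.22 ± 0.22, adjusted p = 0.0351). The 4 antagonists did not overlap between the groups. CER1, SFRP2 and FRZB were called with all 4 arrays alone, with highest adjusted p-values of 0.351 (without shLuc replicate 2), 0.236 (without shLuc replicate 1) and 0.399 (without shLuc replicate 1). The DKK1 call was lost without shLHX2 replicate 1 (0.0711) and shLuc replicate 1 (0.111). SHISA2, which retains frizzled and FGF receptors inside the cell, was at 10.001 and 10.33 in shLHX2 cells, against 11.11 and 11.14 in shLuc cells (adjusted p = 0.0591), and SFRP1 at 12.92 and 12.52 against 13.30 and 13.45 (adjusted p = 0.471).

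Among 28 tested WNT ligands, receptors and targets 2 fell, beside 0.294% of all genes, and 0 rose. The median was -0.203, and -0.465 without shLuc replicate 1. SP5, a zinc-finger factor that is a direct target of beta-catenin, was undetected at 5.60 and 4.94 in shLHX2 cells, against 7.05 and 7.25 in shLuc cells, at least 2.89-fold lower (adjusted p = 0.00542). RSPO3, an R-spondin that strengthens WNT reception, was undetected at 4.66 and 4.87 in shLHX2 cells, against 5.94 and 6.20 in shLuc cells, at least 1.37-fold lower (adjusted p = 0.00837). It was also the called member of 12 cortical hem and choroid plexus genes, whose median was -0.20, and -0.0867 without shLHX2 replicate 1. AXIN2, the feedback target most used as a WNT readout, had a positive difference that did not pass the test, with 10.45 and 10.16 in shLHX2 and 9.97 and 9.89 in shLuc cells (adjusted p = 0.578). LEF1, a partner of beta-catenin, was at 6.96 and 7.21 against 8.25 and 7.93 (adjusted p = 0.191). The SP5 call held without shLHX2 replicate 1 (0.00672) and was lost without shLHX2 replicate 2 (0.0559), shLuc replicate 1 (0.0878) or shLuc replicate 2 (0.11), and that of RSPO3 was made with all 4 arrays alone (highest 0.176, without shLuc replicate 2).

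The Nodal and BMP lists had 1 called member each, where 0.543% of all genes were called. Of 20 Nodal and activin genes CER1 fell and 0 rose, with NODAL itself at 6.50 and 6.26 in shLHX2 cells, against 7.18 and 7.25 in shLuc cells (adjusted p = 0.332), and LEFTY1, its feedback antagonist, at 7.62 and 7.59 against 7.67 and 7.68. Of 24 BMP genes ID1, an inhibitor of basic helix-loop-helix factors induced by BMP, rose. Its log2 signal was 13.11 and 13.43 in shLHX2 cells, against 11.92 and 12.19 in shLuc cells (1.22 ± 0.24, adjusted p = 0.0495), and both probes were higher, by 1.22 and 1.49. The related genes ID2, ID3 and ID4 overlapped between the groups, with log2 fold changes of 0.09, -0.29 and 0.12, and BMP4 was at 10.46 and 10.84 in shLHX2 and 10.02 and 9.88 in shLuc cells (adjusted p = 0.198). ID1 was called with all 4 arrays alone, and its adjusted p reached 0.494 without shLuc replicate 1.

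Of 23 FGF genes 3 fell, beside 0.294% of all genes, and 0 rose, with a median of -0.194. FGF8, a growth factor made by the anterior neural ridge, was undetected at 4.56 and 4.79 in shLHX2 cells, against 6.32 and 6.29 in shLuc cells, at least 1.61-fold lower (adjusted p = 0.0119). FGFBP3, which binds FGF ligands and releases them from the matrix, was at 6.43 and 6.43 against 8.19 and 7.81 (-1.57 ± 0.19, adjusted p = 0.00409). DUSP6, an ERK phosphatase induced by FGF as feedback, was at 8.44 and 7.998 against 9.59 and 9.40 (-1.28 ± 0.21, adjusted p = 0.0173). Other feedback genes did not pass the test: SPRY4 differed by -0.51, ETV5 by -0.45, ETV4 by -0.19 and SPRY2 by -0.10, while the FGFR3 receptor differed by 0.32. FGFBP3 lost its call without shLuc replicate 1 (0.0952). DUSP6 kept it without shLHX2 replicate 1 (0.0431) and lost it without shLHX2 replicate 2 (0.193), shLuc replicate 1 (0.279) and shLuc replicate 2 (0.146). FGF8 was called with all 4 arrays alone (highest 0.173, without shLuc replicate 1).

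Hedgehog and retinoic acid genes gave no call in limma, 0 of 12 and 0 of 17, with medians of 0.0158 and -0.0255, and up to 1 and 2 calls under the alternatives. FOXA2, a forkhead factor of floor plate and endoderm, was undetected at 5.32 and 4.85 in shLHX2 cells, against 6.28 and 6.32 in shLuc cells, at least 1.60-fold lower without passing the threshold (adjusted p = 0.109). ALDH1A2, which makes retinoic acid, was at 6.71 and 7.32 against 7.76 and 7.88 (adjusted p = 0.209). In the Notch list 1 of 25 members fell, beside 0.294% of all genes. This was DLK1, a Notch ligand of atypical structure and an imprinted gene, at 10.05 and 10.67 in shLHX2 cells, against 12.36 and 12.13 in shLuc cells (-1.88 ± 0.24, adjusted p = 0.00542). Both DLK1 probes were lower, by -1.88 and -1.81. Its call held without shLHX2 replicate 2 (0.0109) and was lost without shLHX2 replicate 1 (0.0572), shLuc replicate 1 (0.106) and shLuc replicate 2 (0.068).

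**Figure D3:**
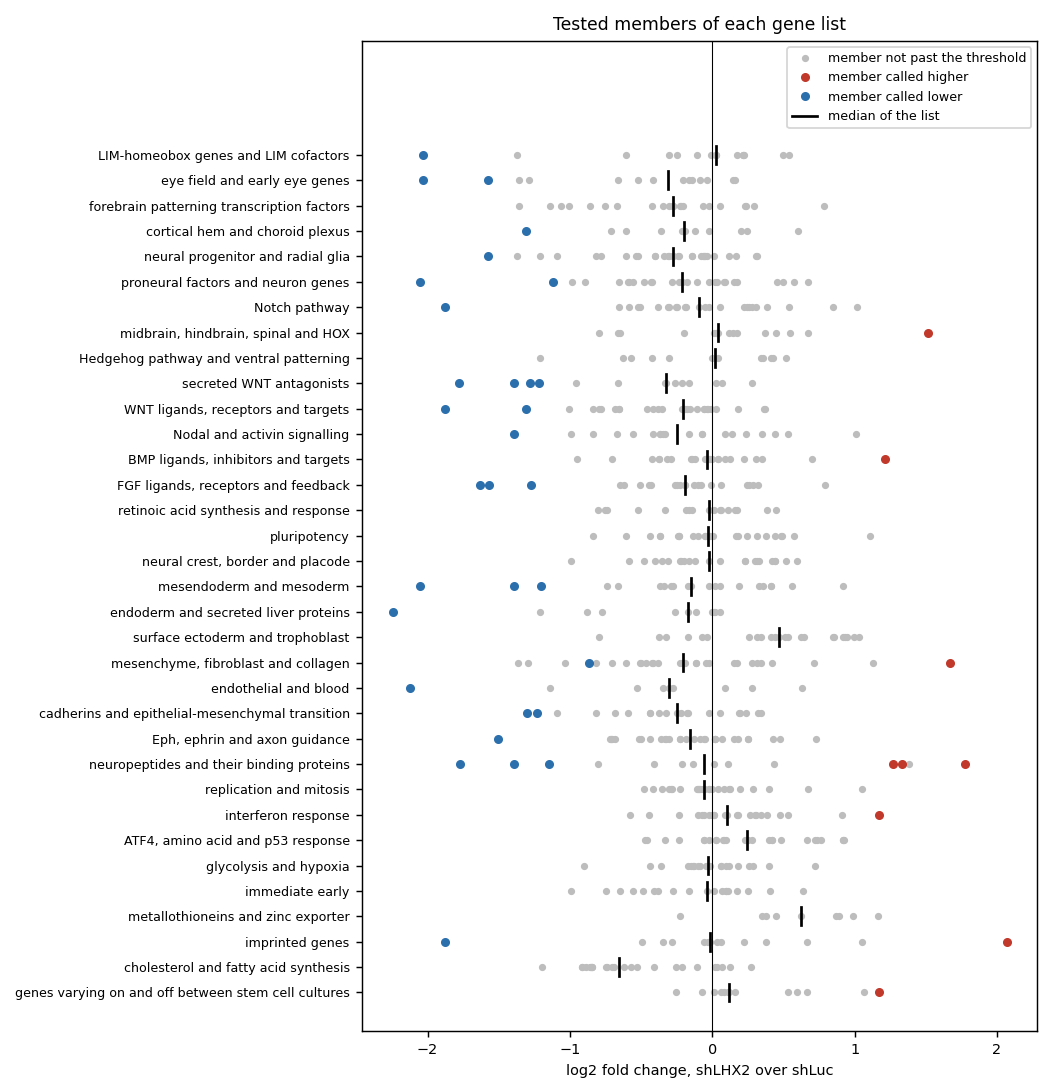
Log2 fold change (shLHX2 over shLuc) of each tested member of the 34 gene lists, 1 point a gene, with the list median as a bar, red for members called higher and blue for members called lower. The 4 called members of the secreted WNT antagonists lie on the lower side, while the metallothionein, stress and surface ectoderm lists hold no called member and medians of 0.626, 0.242 and 0.466.

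Regulators of mesendoderm were among the genes that fell in shLHX2 cells. Of the 21 genes listed for mesendoderm and mesoderm 3 fell, beside 0.294% of all genes, and 0 rose. The median was -0.152, and with 1 array left out it lay nearer 0, between -0.105 (without shLuc replicate 2) and -0.019 (without shLHX2 replicate 2). EOMES, a T-box factor of mesendoderm and of cortical intermediate progenitors, was at 5.72 and 4.81 in shLHX2 cells, detected on 1 of the 2, against 7.33 and 7.30 in shLuc cells (-2.05 ± 0.27, adjusted p = 0.00542). TBXT, the T-box factor Brachyury of the primitive streak, was undetected at 4.84 and 4.92 in shLHX2 cells, against 6.12 and 6.05 in shLuc cells, at least 1.38-fold lower (adjusted p = 0.00824). APLNR, which binds apelin and marks early mesoderm, was undetected at 4.59 and 4.65 against 6.17 and 5.86, at least 1.32-fold lower (adjusted p = 0.00542). TBXT and APLNR were near the detection limit in shLuc cells as well, where the lowest detected signals of the arrays were 5.51 and 5.56. EOMES kept its call without either shLHX2 array (0.00335 and 0.042) and lost it without shLuc replicate 1 (0.106) or shLuc replicate 2 (0.103). APLNR kept it without shLHX2 replicate 2 (0.0448) and shLuc replicate 2 (0.0309), and lost it without shLHX2 replicate 1 (0.0572) and shLuc replicate 1 (0.106), and TBXT was called with all 4 arrays alone (highest 0.149, without shLuc replicate 1).

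APOA1, the main protein of high-density lipoprotein, had the lowest fitted log2 fold change of all called genes, -2.24. It was undetected at 5.18 and 5.31 in shLHX2 cells, against 7.39 and 7.58 in shLuc cells, at least 3.65-fold lower (adjusted p = 0.00824), and it was the called member of 11 tested endoderm and liver genes. CST1, a secreted inhibitor of cysteine proteases, was undetected at 4.75 and 4.69 against 6.94 and 6.96, at least 2.52-fold lower (adjusted p = 0.000843). TEK, the angiopoietin receptor of endothelium, was at 6.30 and 6.33 in shLHX2 cells, against 8.37 and 8.50 in shLuc cells (-2.12 ± 0.19, adjusted p = 0.000583), and its 2 probes were lower by -2.12 and -2.30. TEK was the called member of 9 tested endothelial and blood genes, whose median was -0.305, and -0.0852 with no filter on dim probes. On the day 4 arrays TEK was at 7.99 to 9.08, and PECAM1, CDH5 and HBE1 were undetected there as well. APOA1 was called with all 4 arrays alone (highest 0.145, without shLuc replicate 2), while TEK and CST1 held without any 1 array, at adjusted p-values up to 0.019 and 0.0254.

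Adhesion, guidance and matrix genes included 5 calls, 4 lower and 1 higher, where 0.294% of all genes were lower and 0.249% higher. CDH6 and ZEB2 were the calls among 21 tested adhesion genes. EPHA4, a receptor for ephrins, was at 8.60 and 8.59 in shLHX2 cells, against 9.997 and 10.21 in shLuc cells (-1.51 ± 0.20, adjusted p = 0.00542), the 1 call among 30 guidance genes. CDH6, a cadherin of the neural plate and its border, was at 8.39 and 8.59 against 9.68 and 9.77 (-1.23 ± 0.18, adjusted p = 0.00837). ZEB2, a repressor that binds SMAD proteins and acts in neural induction in vertebrate embryos, was undetected at 5.31 and 5.55 against 6.70 and 6.76, at least 2.16-fold lower (adjusted p = 0.0432). Of 30 mesenchyme and matrix genes COL4A1, a basement membrane collagen, fell (10.93 and 10.85 in shLHX2 against 11.74 and 11.78 in shLuc cells, -0.87 ± 0.17, adjusted p = 0.0432) and DCN, the proteoglycan decorin, rose. DCN was at 7.17 and 7.86 in shLHX2 cells, against 5.92 and 5.78 in shLuc cells (1.67 ± 0.24, adjusted p = 0.00824), and its probes differed in size, at 1.67 and 0.44. Its call held without shLHX2 replicate 1 (0.00814) and was lost without shLHX2 replicate 2 (0.0862), shLuc replicate 1 (0.106) and shLuc replicate 2 (0.146). EPHA4, CDH6, ZEB2 and COL4A1 were called with all 4 arrays alone, with highest adjusted p-values of 0.114, 0.146, 0.351 and 0.351, each without shLuc replicate 2. CDH1, the epithelial cadherin, was at 12.78 and 12.30 in shLHX2 and 12.92 and 12.81 in shLuc cells (adjusted p = 0.714).

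Promoter windows are shown for 4 genes described above, so that their letters can be read beside the values. The windows hold the 250 bases before the annotated start in RefSeq (GRCh38.p14), written 5′ to 3′ in the direction of the gene, and they were chosen after their letters were searched. Of the called genes 34 of 46 lower and 21 of 39 higher ones had a window in the table used. TAATTA, a core site of LIM-homeodomain proteins, and TAATTG, searched in addition later, were counted on both strands, where TAATTG reads CAATTA on the other. Capitals mark a match. The CER1 window (chr9:14722734-14722983, minus strand) holds TAATTA with its first base 196 bases before the start. TAATTG lies 241 bases before the start in SP5 (chr2:170715087-170715336, plus strand) and, read as CAATTA, 153 bases before it in ZEB2 (chr2:144520120-144520369, minus strand). The PAX6 window (chr11:31817962-31818211, minus strand) holds neither.
CER1: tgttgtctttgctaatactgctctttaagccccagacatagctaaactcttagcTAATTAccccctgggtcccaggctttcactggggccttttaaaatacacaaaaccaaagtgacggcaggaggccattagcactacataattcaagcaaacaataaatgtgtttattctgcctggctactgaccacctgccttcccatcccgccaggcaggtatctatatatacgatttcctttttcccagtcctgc
SP5: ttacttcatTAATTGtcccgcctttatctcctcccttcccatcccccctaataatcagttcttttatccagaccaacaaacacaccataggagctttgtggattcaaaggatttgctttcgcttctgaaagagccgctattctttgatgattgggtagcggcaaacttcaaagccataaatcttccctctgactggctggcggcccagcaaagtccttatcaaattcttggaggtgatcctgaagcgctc
ZEB2: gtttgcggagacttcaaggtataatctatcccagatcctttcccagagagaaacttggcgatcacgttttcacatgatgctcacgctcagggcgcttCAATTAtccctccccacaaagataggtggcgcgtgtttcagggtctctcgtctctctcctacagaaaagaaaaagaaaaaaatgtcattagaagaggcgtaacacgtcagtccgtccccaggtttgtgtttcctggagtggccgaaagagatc
PAX6: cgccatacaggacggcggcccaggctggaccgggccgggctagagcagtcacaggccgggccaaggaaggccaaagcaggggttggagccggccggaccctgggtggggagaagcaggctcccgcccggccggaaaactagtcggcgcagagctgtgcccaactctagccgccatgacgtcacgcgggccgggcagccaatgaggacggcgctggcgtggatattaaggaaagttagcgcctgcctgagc

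TAATTA was in 1 of the 34 windows of lower genes (2.941%) and in 0 of the 21 of higher genes, beside 1.873% of the 10465 windows of tested genes and 4.494% of all 27305 windows. TAATTG was in 6 of the 34 (17.65%) and in 0 of the 21, beside 3.927% of windows of tested genes and 6.874% of all windows. The other 4 lower genes with TAATTG were LGI1, NTS, RTN1 and SEL1L3. The median GC content was 54% in windows of lower genes, 61.6% in those of higher genes and 64.8% in those of tested genes, and a match of A and T letters is more frequent where GC content is low. The counts are a description of letters. A match is not a binding site, and no match says only that these letters are not in the window.

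Neuropeptide genes had calls in both directions, 3 lower and 3 higher of 14 tested, beside 0.294% and 0.249% of all genes. SST, which encodes somatostatin, was undetected at 4.70 and 4.96 in shLHX2 cells, against 6.59 and 6.62 in shLuc cells, at least 1.98-fold lower (adjusted p = 0.00542). PDYN, the precursor of dynorphins, was at 5.84 and 6.23 against 7.61 and 7.26 (-1.40 ± 0.23, adjusted p = 0.0216). NTS, the precursor of neurotensin, was at 8.81 and 8.87 against 10.03 and 9.94 (-1.15 ± 0.22, adjusted p = 0.0495). CRH, the corticotropin-releasing hormone, rose and was at 7.01 and 7.05 in shLHX2 cells, against 5.60 and 4.91 in shLuc cells, detected on 1 of those 2 (1.78 ± 0.26, adjusted p = 0.00837).

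CALCA and CALCB, which encode calcitonin and the 2 forms of the calcitonin gene-related peptide, both rose and are neighbours on chromosome 11, with 1 gene between them. CALCA was at 8.68 and 8.51 in shLHX2 cells, against 7.54 and 7.12 in shLuc cells (1.27 ± 0.22, adjusted p = 0.025). CALCB was at 6.21 and 6.25 in shLHX2 cells, against 4.96 and 4.85, undetected, in shLuc cells, at least 1.62-fold higher (adjusted p = 0.0351). The genes are similar in sequence, and whether their probes tell them apart was not tested. SST held its call without shLHX2 replicate 2 (0.0382) and lost it without shLHX2 replicate 1 (0.0766), shLuc replicate 1 (0.106) and shLuc replicate 2 (0.105). CRH held without shLuc replicate 1 (0.0254) and lost its call without shLHX2 replicate 1 (0.0826), shLHX2 replicate 2 (0.0868) and shLuc replicate 2 (0.146). PDYN, NTS, CALCA and CALCB were called with all 4 arrays alone, with highest adjusted p-values of 0.311 and 0.451 (without shLuc replicate 1) and 0.336 and 0.332 (without shLuc replicate 2). TAC1, the precursor of substance P, was at 7.23 and 7.52 in shLHX2 cells, against 4.55 and 7.44 in shLuc cells, so its difference came from 1 shLuc array.

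Of genes for neurons 2 of 28 tested were called, both lower, beside 0.294% of all genes. They were EOMES above and RTN1, a reticulon of the neuronal endoplasmic reticulum. RTN1 was at 5.99 and 5.98 in shLHX2 cells, against 7.16 and 7.05 in shLuc cells (-1.12 ± 0.17, adjusted p = 0.0119), but its 3 probes ran from -1.12 to 0.34, the 1 called gene whose probes differed in sign. It was called with all 4 arrays alone (highest 0.206, without shLuc replicate 1). DCX and TUBB3, 2 cytoskeletal genes of young neurons, overlapped between the groups, with log2 fold changes of 0.02 and -0.03. Of 17 midbrain, hindbrain, spinal and HOX genes HOXB2 rose. HOXB2, a homeobox gene of the hindbrain, was at 7.16 and 7.75 in shLHX2 cells, against 6.07 and 5.81 in shLuc cells (1.51 ± 0.23, adjusted p = 0.0137). Its call held without shLHX2 replicate 1 (0.0219) and was lost without shLHX2 replicate 2 (0.156), shLuc replicate 1 (0.111) and shLuc replicate 2 (0.22). HOXB6 of the same cluster was at 6.28 and 6.45 against 5.73 and 5.91 (adjusted p = 0.479), and HOXB4, HOXB7 and HOXB8 were undetected on all 4 arrays.

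The genes that rose most were of varied kind. CTSF, a lysosomal cysteine protease, was at 9.07 and 9.22 in shLHX2 cells, against 6.61 and 6.56 in shLuc cells (2.56 ± 0.22, adjusted p = 0.000409). IZUMO2, of a family of sperm membrane proteins, was at 6.92 and 7.17 in shLHX2 cells, against 4.73 and 4.83, undetected, in shLuc cells, at least 2.85-fold higher (adjusted p = 0.000409). CIDEB, a lipid droplet protein, was at 6.22 and 6.76 against 4.39 and 4.46, undetected, at least 1.94-fold higher (adjusted p = 0.000774). ECHDC3, of the enoyl-CoA hydratase family, was at 7.79 and 8.19 against 5.92 and 6.01 (2.02 ± 0.20, adjusted p = 0.000836). LOC653907, to which the tables used give no further name, was at 7.08 and 7.15 in shLHX2 cells, against 5.34 and 5.29, undetected, in shLuc cells, at least 3.00-fold higher (adjusted p = 0.000836). These 5 were among the calls that held without any 1 array, with adjusted p-values up to 0.0254.

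ZNF667-AS1, a non-coding RNA antisense to the zinc-finger gene ZNF667, was at 7.11 and 6.91 in shLHX2 cells, against 4.77 and 4.57, undetected, in shLuc cells, at least 2.78-fold higher (adjusted p = 0.000409, and up to 0.0161 without 1 array). Its neighbours on chromosome 19 rose too. ZNF667 was at 6.55 and 6.08 in shLHX2 cells, against 4.68 and 4.86, undetected, in shLuc cells, at least 1.72-fold higher (adjusted p = 0.0105), and ZNF583, next to it, at 5.88 and 6.01 against 4.95 and 5.005, undetected, at least 1.33-fold higher (adjusted p = 0.0435). ZNF667 and ZNF583 were named after their values were seen. The ZNF667 call held without shLHX2 replicate 2 (0.0354) and was lost without shLHX2 replicate 1 (0.105), shLuc replicate 1 (0.184) and shLuc replicate 2 (0.114), and ZNF583 was called with all 4 arrays alone (highest 0.406, without shLuc replicate 1). Whether the probes tell the strands apart was not tested.

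H19 and VTCN1 rose and were detected in both groups. H19, a long RNA without a protein product from an imprinted locus, was at 10.69 and 11.55 in shLHX2 cells, against 8.96 and 9.15 in shLuc cells (2.07 ± 0.26, adjusted p = 0.00542). IGF2, its imprinted neighbour, was undetected on all 4 arrays. Of 15 imprinted genes H19 rose and DLK1 fell, the median was -0.0134, and MEG3, from the DLK1 region, was at 5.92 and 6.16 in shLHX2 cells, against 6.42 and 6.64 in shLuc cells (adjusted p = 0.466). VTCN1, a B7 family protein that restrains T cells and is found in trophoblast, was at 8.80 and 9.46 against 6.97 and 6.87 (2.21 ± 0.27, adjusted p = 0.0041). Both kept their calls without either shLHX2 array and lost them without a shLuc array, with adjusted p-values of 0.106 and 0.0685 for H19 and 0.0753 and 0.0806 for VTCN1 without shLuc replicate 1 and 2 in turn.

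The remaining genes that rose or fell by most and are named here are LRRC61 and THNSL2 on the higher side and SORBS2 and CTSZ on the lower. LRRC61, a leucine-rich repeat protein, was at 7.55 and 7.96 in shLHX2 cells, against 5.45 and 5.80 in shLuc cells, detected on 1 of those 2 (2.13 ± 0.36, adjusted p = 0.0216). THNSL2, a threonine synthase-like protein, was at 7.90 and 8.28 against 6.40 and 6.53 (1.63 ± 0.21, adjusted p = 0.00542). SORBS2, an adaptor of the actin cytoskeleton, was at 6.43 and 6.02 in shLHX2 cells, against 8.03 and 8.13 in shLuc cells (-1.86 ± 0.34, adjusted p = 0.0365). CTSZ, like CTSF a lysosomal cysteine protease, was at 6.13 and 5.53, detected on 1 of the 2, against 7.65 and 7.47 (-1.73 ± 0.24, adjusted p = 0.00813), so the 2 cathepsins moved in opposite directions. LRRC61 and SORBS2 were called with all 4 arrays alone (highest 0.289 without shLuc replicate 1 and 0.325 without shLuc replicate 2). THNSL2 and CTSZ held without shLHX2 replicate 1 (0.0204 and 0.0135) and lost their calls without shLHX2 replicate 2 (0.0694 and 0.0894), shLuc replicate 1 (0.106 and 0.137) and shLuc replicate 2 (0.0882 and 0.104).

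**Figure D4:**
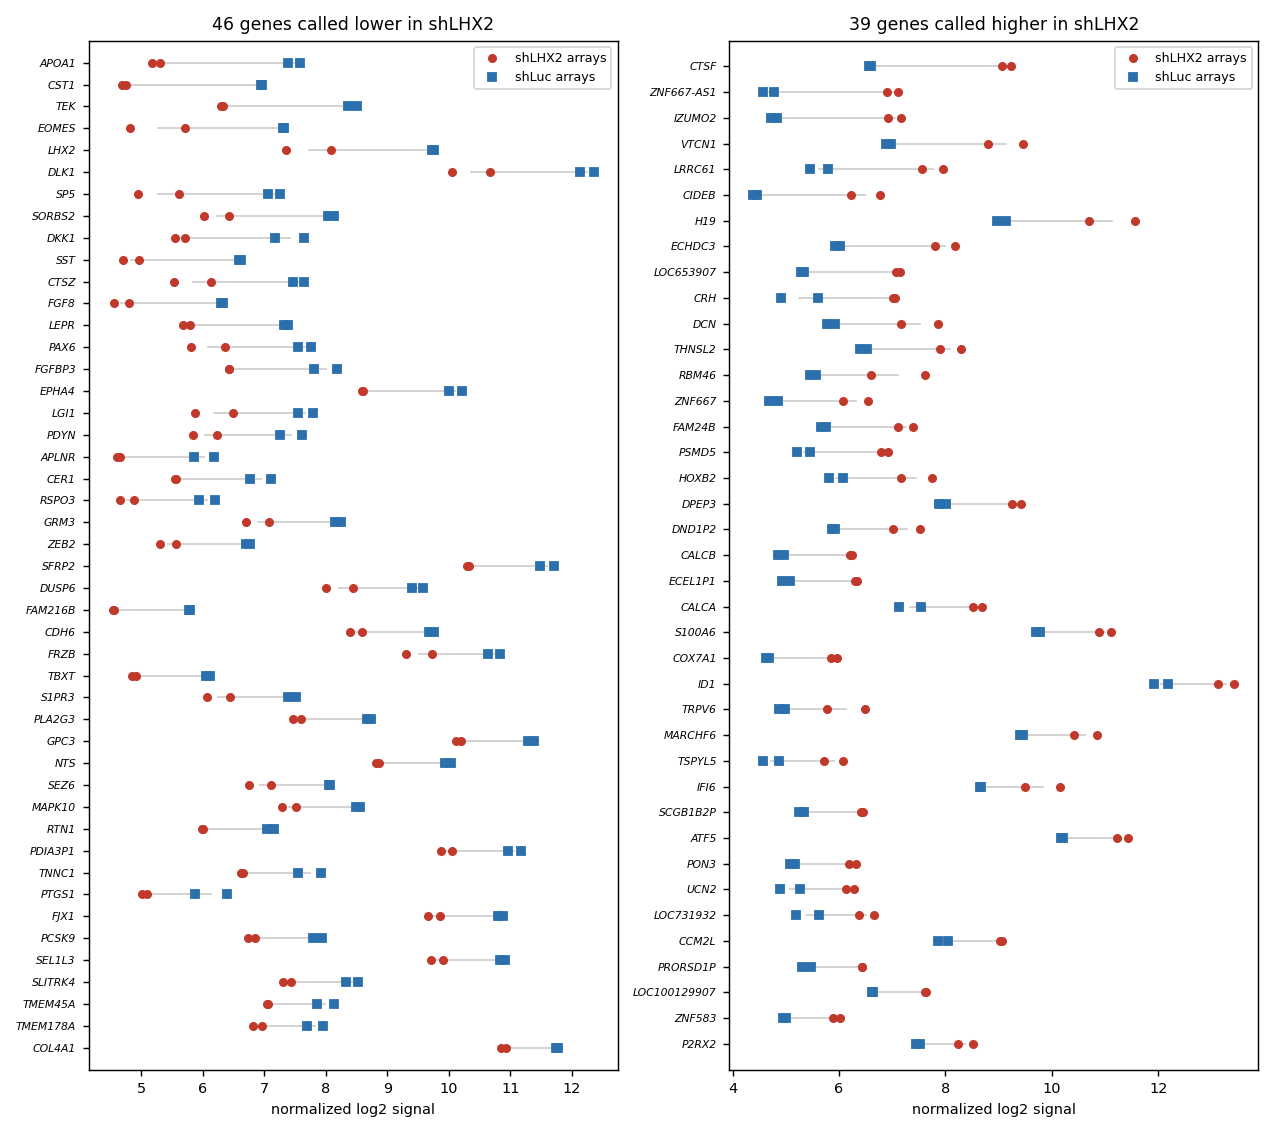
Normalized log2 signal of the 85 called genes, 46 lower and 39 higher in shLHX2 cells, with circles for the 2 shLHX2 arrays, squares for the 2 shLuc arrays and a line between the group means. Genes run down the page by the size of the log2 fold change, from APOA1 to COL4A1 on the lower side and from CTSF to P2RX2 on the higher.

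The other 41 called genes, 19 lower and 22 higher, had log2 fold changes from -1.62 to -0.93 and from 0.89 to 1.60. Examples, named after their values were seen, are LEPR, the leptin receptor (5.80 and 5.67 in shLHX2 against 7.38 and 7.32 in shLuc cells, adjusted p = 0.0245), and GPC3, a glypican that binds growth factors (10.21 and 10.12 against 11.28 and 11.38, adjusted p = 0.0161). The 3 probes of LEPR differed in size, with log2 fold changes from -1.62 to -0.21. On the higher side PSMD5, a chaperone of proteasome assembly, was at 6.92 and 6.80 in shLHX2 cells, against 5.46 and 5.20, undetected, in shLuc cells, at least 2.50-fold higher (adjusted p = 0.00409). ATF5, a stress-responsive leucine zipper factor, was at 11.23 and 11.42 against 10.22 and 10.16 (adjusted p = 0.0181). S100A6, a calcium-binding protein, was at 10.88 and 11.11 against 9.70 and 9.77 (adjusted p = 0.0165). PSMD5 lost its call without shLuc replicate 2 (0.0922), and the other 4 were called with all 4 arrays alone, with highest adjusted p-values of 0.283 for LEPR (without shLuc replicate 1) and 0.22, 0.22 and 0.218 for GPC3, ATF5 and S100A6 (without shLuc replicate 2, 2 and 1 in turn). PDIA3P1 (lower), DND1P2 and ECEL1P1 (higher) are pseudogenes, for which signal from their parent genes cannot be told apart. Of the interferon list of 23 genes IFI6, an interferon-induced mitochondrial protein, rose, at 9.50 and 10.15 in shLHX2 cells, against 8.66 and 8.66 in shLuc cells (adjusted p = 0.0452). The IFI6 call held without shLHX2 replicate 1 (0.0404) and was lost without shLHX2 replicate 2 (0.391), shLuc replicate 1 (0.389) and shLuc replicate 2 (0.336). TSPYL5, of the nucleosome assembly family, rose in a list of 13 genes known to vary between stem cell cultures, of which 10 were higher on both shLHX2 arrays, beside 25.4% of all genes. The median of that list was 0.117, and 0.0737 without shLuc replicate 1. TSPYL5 was at 6.08 and 5.72 in shLHX2 cells, against 4.88 and 4.58, undetected, in shLuc cells, at least 1.29-fold higher (adjusted p = 0.0173), and was called with all 4 arrays alone (highest 0.271, without shLuc replicate 2).

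Pluripotency genes gave 0 calls of 25 tested in limma (0 to 1 under the alternatives), with a median log2 fold change of -0.0289. POU5F1 was at 12.55 and 11.97 in shLHX2 cells, against 12.38 and 12.35 in shLuc cells, NANOG at 10.31 and 9.89 against 9.90 and 9.68, and LIN28A at 14.08 and 14.11 against 14.05 and 13.80. The 3 core genes thus overlapped or differed by at most 0.31. UTF1, a chromatin factor of stem cells, was at 8.30 and 8.52 against 7.16 and 7.45 and missed the threshold narrowly (1.11 ± 0.22, adjusted p = 0.0528). Neural crest, border and placode genes gave 0 calls of 23 (0 to 1 under the alternatives) and a median of -0.0248. Proliferation genes gave 0 calls of 27 (0 to 1) and a median of -0.0582, and CDKN1C, an inhibitor of the cell cycle, was at 9.08 and 9.58 in shLHX2 cells, against 8.20 and 8.36 in shLuc cells (adjusted p = 0.217).

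Lists without a call also differed in how their members were spread. Surface ectoderm and trophoblast genes had a median of 0.466, and 13 of 23 were higher on both shLHX2 arrays, beside 25.4% of all genes. KRT7, a simple epithelial keratin, was at 8.20 and 8.85 in shLHX2 cells, against 7.33 and 7.65 in shLuc cells (adjusted p = 0.143), VGLL1, a TEAD cofactor of trophoblast, at 6.83 and 7.31 against 6.11 and 6.16 (adjusted p = 0.0643), and GATA3, a trophoblast and ectoderm factor, at 7.17 and 7.84 against 6.78 and 6.53 (adjusted p = 0.302). That median moved by over 1.5 times with 1 array: it was 0.166 without shLHX2 replicate 2 and 0.716 without shLHX2 replicate 1. Genes of cholesterol and fatty acid synthesis lay on the lower side, with a median of -0.656 and 18 of 24 lower on both shLHX2 arrays, beside 22.6% of all genes. FADS2, a fatty acid desaturase, was at 7.54 and 7.69 in shLHX2 cells, against 8.84 and 8.79 in shLuc cells (adjusted p = 0.0926).

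Metallothioneins, small zinc-binding proteins, had a median of 0.626, and 8 of 9 list members were higher on both shLHX2 arrays (25.4% of all genes were), the zinc exporter SLC30A1 being the exception. MT1E was at 11.23 and 11.27 in shLHX2 cells, against 9.76 and 10.41 in shLuc cells (adjusted p = 0.0817), and MT1H at 11.27 and 11.01 against 10.02 and 10.29 (adjusted p = 0.0528). The MT1 genes are near-identical copies, and their probes may share signal. Genes of the ATF4, amino acid and p53 response had a median of 0.242 and 13 of 26 higher on both shLHX2 arrays, beside 25.4% of all genes, among them TRIB3, a pseudokinase induced by ATF4, at 10.02 and 9.99 against 8.92 and 9.24 (adjusted p = 0.0597). That median was 0.00456 with the series values left unnormalized between arrays, where the median of all genes was -0.166. CHAC1, another ATF4 target, was at 8.30 and 8.47 in shLHX2 cells, against 7.47 and 7.45 in shLuc cells (adjusted p = 0.174). Hypoxia and immediate early genes gave 0 calls of 20 and 19, with medians of -0.0286 and -0.0338. P4HA1, a collagen hydroxylase induced by hypoxia, was at 8.67 and 7.78 in shLHX2 cells, against 9.03 and 9.22 in shLuc cells (adjusted p = 0.555), and EGR1, an immediate early factor, at 9.26 and 9.28 against 10.30 and 10.22 (adjusted p = 0.276). These counts of called genes come from limma and reached at most 4 for surface ectoderm, 9 for cholesterol, 5 for metallothioneins, 5 for stress, 0 for hypoxia and 2 for immediate early genes under the alternatives.

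The overexpression arm was designed as the other manipulation of LHX2, and its day 16 arrays are at a neighbouring time. At day 4, 1 day after treatment, LHX2 was at 6.05 and 5.45 in dox-plus cells, detected on 1 of the 2. In dox-minus cells it was undetected, at 5.23 and 4.87. No array was taken during treatment, so how far LHX2 was induced is not shown here. At day 16, dox-plus and dox-minus cells differed in 2148 of 15650 genes (13.7%), with 952 higher (6.08%) and 1196 lower (7.64%) on the dox-plus arrays. The arrays of the 2 comparisons are different ones, and what doxycycline itself does cannot be told apart there from what LHX2 does. The series text names a GFP control for this arm, which is not among the labels used here. LHX2 itself was at 12.91 ± 0.17 in dox-plus and 12.06 ± 0.19 in dox-minus cells (SD, n = 2 each) and did not pass the test (adjusted p = 0.0581), nor did PAX6 (0.59 ± 0.22, adjusted p = 0.0972) or CER1 (adjusted p = 0.379).

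Of the 46 genes lower in shLHX2 cells, 11 were higher in dox-plus cells (23.9% of the 46 and 1.16% of the 952) and 10 lower (21.7% of the 46 and 0.836% of the 1196). Of the 39 genes higher in shLHX2 cells, 13 were lower in dox-plus cells (33.3% of the 39 and 1.09% of the 1196) and 3 higher (7.69% of the 39 and 0.315% of the 952). The 11 genes lower with the hairpin and higher with doxycycline were FGF8, EPHA4, FRZB, RTN1, MAPK10, SEZ6, GRM3, PTGS1, FJX1, SLITRK4 and TMEM178A. FGF8 was at 10.46 ± 0.19 in dox-plus and 6.97 ± 0.57 in dox-minus cells (adjusted p = 3.05e-06), and FRZB at 12.39 ± 0.05 and 10.14 ± 0.11 (adjusted p = 4.31e-05). The 13 with the reverse pattern included HOXB2, at 6.55 ± 0.09 in dox-plus and 9.38 ± 0.22 in dox-minus cells (adjusted p = 1.04e-05), DCN, at 6.87 ± 0.02 and 9.91 ± 0.30 (adjusted p = 6.27e-06), and ZNF667-AS1, ZNF667 and ZNF583. Leaving out arrays was not run for day 16.

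Other genes moved the same way in both comparisons. TEK was at 7.06 ± 0.04 in dox-plus and 9.05 ± 0.31 in dox-minus cells (adjusted p = 4.02e-05), and EOMES was undetected in dox-plus cells and at least 1.61-fold lower (adjusted p = 0.00338). APOA1, CST1 and APLNR were undetected in dox-plus cells and at least 13.3-fold, 14.0-fold and 15.4-fold lower (adjusted p = 7.28e-06, 2.49e-07 and 2.51e-08). DKK1, SST, NTS, PLA2G3 and COL4A1 were the other genes lower in both. At day 16 H19 was detected on both dox-plus arrays and on neither dox-minus array, at least 50.9-fold higher (adjusted p = 2.51e-08), and DPEP3 and LOC731932 were the other genes higher in both.

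**Figure D5:**
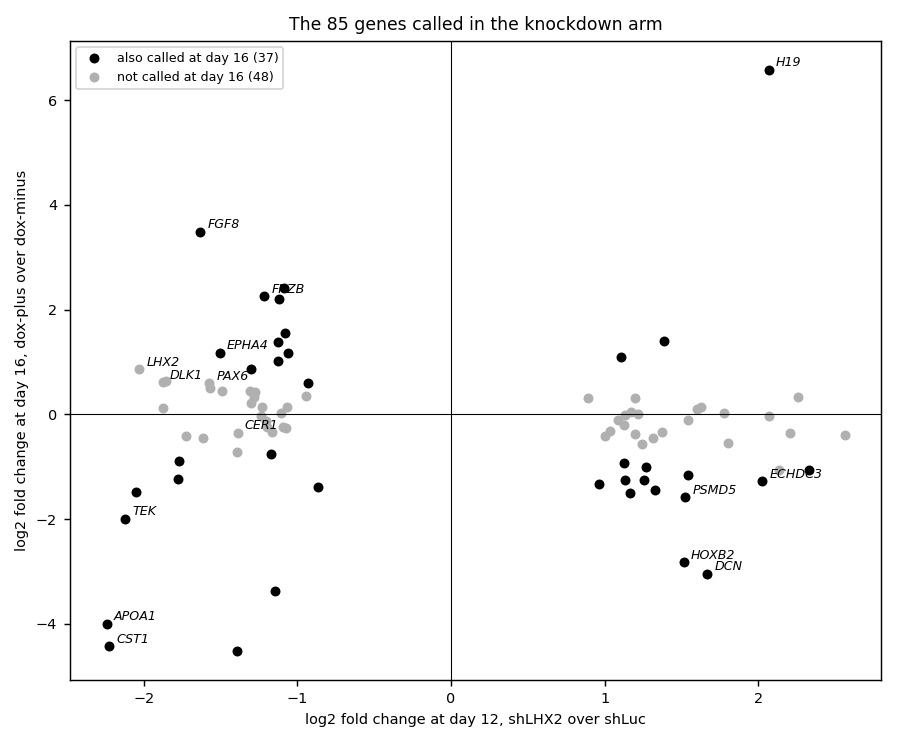
Log2 fold change of the 85 genes called at day 12 (shLHX2 over shLuc, horizontal) against their log2 fold change at day 16 (dox-plus over dox-minus, vertical), 1 point a gene, black where the gene was also called at day 16. The 37 black points fall in all 4 quadrants, 11 of them lower at day 12 and higher at day 16 and 13 the reverse, and the fitted values of undetected genes are plotted as they are.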

How the data were processed

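Total RNA of 12 H9 cultures was measured on Illumina arrays of 47227 probes. Per the labels' protocols, RNA came from RNeasy columns and was amplified with MessageAmp. The deposited values are, per the file headers, an average signal intensity and a detection p-value for each probe. The scanner software and any background step are not given in the sources used here. A deposited table of the whole series holds the same intensity values, except that its shLuc columns hold each other's, and the per-array files were used. No per-sample column was left unmapped (0).

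The intensities of the 12 arrays were background-corrected with normexp, normalized to common quantiles and log2 transformed (limma 3.58.1 in R 4.3.3, neqc, offset 16). A probe was kept where at least 1 group had detection p-values under 0.01 on its 2 arrays, 21526 in all, of which 807 had no gene. Gene symbols were updated through Entrez numbers for 35670 of the 47227 probes, 8287 kept the name in the files and 3270 had no identifier. Of several probes of a gene (4013 genes) the one with the highest mean was used, which left 15650 genes. A model with the 6 groups was fitted with lmFit and eBayes, so that all groups share 1 estimate of spread (6 residual degrees of freedom, 5.93 prior), shLHX2 was set against shLuc, and p-values were adjusted over all genes by Benjamini-Hochberg. Genes with an adjusted p under 0.05 are called. The procedure was also run on data simulated with the fitted spread of each gene, equal in all groups. Such data share the assumptions of the model, so the run is no check on the calls. The p-values measure the spread between the deposited samples.

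The genes and lists were chosen with earlier results of these data known. Named are LHX2, PAX6 and CER1, at each end of the log2 fold change 12 called genes, up to 4 called members of each of 34 lists by size of change, and, for a list with no call, its member with the largest change, apart from items not reported here. Other genes were named after their values were seen, among the called ones NTS and CALCA. Alternatives covered the background correction, the normalization, the series table, the filter, the choice of probe, the arrays in the fit, the spread estimate, array weights, thresholds, a replicate block and fits without each array in turn. Replicate numbers agree between groups, and deviations of equally numbered arrays correlated at 0.0729 at day 12, 0.334 at day 4 and -0.579 at day 16. At day 12 the number thus paired the arrays little, and it was not used in the chosen analysis. What the deviations at days 4 and 16 have in common was not tested.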

Additional observations from a re-analysis of the deposited data

How the results depend on the processing

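Under 20 alternatives none of the 56 genes named by the rule given with the processing changed direction. Most were picked for a large change and none overlapped between the groups, so leaving out 1 array could not reverse them. Alternatives in the spread estimate leave the fold change as it is. The constant direction was thus largely fixed in advance and is no support for the calls. For the other genes in the text direction was not followed. The count of called genes, 85 in the chosen analysis, was 55 with the series table not normalized between arrays (9 higher and 46 lower), 173 with the knockdown arrays alone in the fit, 418 with array weights, 37 with an ordinary t statistic, 31 at an adjusted p under 0.01 and 164 under 0.1. It lay between 10 and 25 when 1 array was left out. With the replicate number as a block 26 genes were called, 25 of them among the 85. By the check given with the processing, the numbers paired the day 12 arrays little. In the other alternatives it was 74 to 98, the highest with median scaling (28 higher and 70 lower). There the share of higher calls was 28.6% and the median of all genes -0.13, and 16.4% and -0.166 in the series table not normalized, against 45.9% and 0.00545. The number of higher calls fell under both scalings, to 28 and 9 against 39. With 8 arrays of the knockdown arm and day 4, a choice made after seeing the data, 96 were called, 77 of them among the 85. The log2 fold change of LHX2 was -2.03 with the ordinary t statistic too, but its adjusted p was then 0.0999. It lay between -2.40 and -1.66 with 1 array left out, and its adjusted p was 0.0282 with the block. The cause of these shifts was not tested. Signals near the detection limit bound the size of change for 28 of the called genes, 12 undetected in shLHX2 and 16 in shLuc cells, and 2 arrays a group limit every call.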
